A study of Caenorhabditis elegans with 2 samples.

Results

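The regions described here are the sub-threshold regions of a chromatin immunoprecipitation (ChIP-seq) experiment in Caenorhabditis elegans: those that ranked just below the regions that the authors kept. They were chosen by the authors' pooled signal value, as ranks 394 to 1500 of the pooled list, with 12 regions left out because they overlapped a kept region. That left 1095 of the 30000 pooled regions, set here against the 393 regions that passed and against the 28396 regions of lower rank. The worms were of strain OP208, which carries unc-119(ed3) and the integrated transgene wgIs208, and were collected as young adults at 78 h, males and females pooled, from larvae synchronized by starvation at the first stage. An antibody to green fluorescent protein (GFP) was used on whole animals, in 2 biological replicates of 1 group, so no conditions could be compared. Most labels name the tagged protein as nhr-27 with enhanced GFP, but a strain note names NHR-270 with GFP and FLAG at its C terminus. It is 1 transgenic line, and in whole animals a weak signal in many cells and a strong one in few cannot be told apart.

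Nuclear hormone receptors are transcription factors that bind DNA through zinc fingers, and many of them respond to small lipophilic ligands. The genes of transfer RNAs (tRNAs) are read by RNA polymerase III from promoter elements inside the gene, called box A and box B. Many small nucleolar RNA (snoRNA) genes, whose products guide the modification of other RNAs, lie inside introns of protein-coding genes. The irreproducible discovery rate (IDR) method ranks regions in each replicate and keeps those that rank high in both. Here the regions kept were ranks 1 to 393 of the pooled list, so the sub-threshold regions are those below a cut in pooled signal. Such a region may be strong in a single replicate or moderate in each.

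The sub-threshold regions held tRNA, snoRNA or small nuclear RNA (snRNA) genes less often than the regions that passed, and more often than the regions of lower rank. Such a gene lay within 200 bp of the summit, the base of highest signal, in 109 of 1095 sub-threshold regions (9.95%, exact 95% interval 8.24% to 11.9%). It did so in 128 of 393 that passed (32.6%, 28.0% to 37.4%) and in 392 of 28396 of lower rank (1.38%). Coding exons took the opposite course, with 24.0% of sub-threshold summits against 9.92% of those that passed. Sequence around 6 summits near the top of the band shows these kinds of site, each as 121 bases of the plus strand of WBcel235 (the RefSeq genome, the same assembly as ce11) centred on the summit. Capitals mark bases of the RNA gene in the first 3, and a searched word on either strand in the last 3: GAGAGA at miz-1, CACGCG at C01B10.9 and TTTCAG at glr-2.
F28F8.t3: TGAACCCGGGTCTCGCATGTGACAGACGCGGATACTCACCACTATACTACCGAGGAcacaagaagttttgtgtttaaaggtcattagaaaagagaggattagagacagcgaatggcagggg
F29C4.t1: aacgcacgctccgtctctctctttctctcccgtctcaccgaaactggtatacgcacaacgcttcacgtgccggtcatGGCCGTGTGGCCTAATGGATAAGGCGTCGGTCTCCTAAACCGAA
M106.6: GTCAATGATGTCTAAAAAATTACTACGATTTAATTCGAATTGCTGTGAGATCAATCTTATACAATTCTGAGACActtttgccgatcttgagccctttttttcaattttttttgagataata
miz-1: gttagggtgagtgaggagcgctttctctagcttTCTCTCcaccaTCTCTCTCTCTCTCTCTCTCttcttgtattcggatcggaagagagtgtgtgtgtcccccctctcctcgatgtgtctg
C01B10.9: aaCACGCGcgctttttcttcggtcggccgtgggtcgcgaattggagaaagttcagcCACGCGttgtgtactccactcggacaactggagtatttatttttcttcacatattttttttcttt
glr-2: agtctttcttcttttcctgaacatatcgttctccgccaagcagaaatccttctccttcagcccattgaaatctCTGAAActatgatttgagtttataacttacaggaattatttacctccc

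The first window, chrV:15551815-15551935, was that of rank 397 and lay at F28F8.t3, an aspartate tRNA gene on the minus strand in an intron of acr-18, an acetylcholine receptor subunit gene. Its summit was 5 bp from the tRNA gene. The second, chrIV:143905-144025, was that of rank 404 and lay 17 bp from F29C4.t1, an arginine tRNA gene in an intron of col-99, a collagen gene. The third, chrII:10840318-10840438, was that of rank 398, with its summit inside the snoRNA gene M106.6, which lies in an intron of mix-1, a condensin subunit gene. The fourth, chrIV:10821923-10822043, was that of rank 402, at position -676 from a 5′ end of miz-1 (negative is upstream). Its run of alternating T and C puts GAGAGA on the minus strand. The fifth, chrIV:6631984-6632104, was that of rank 424 in the promoter window of C01B10.9 and held CACGCG at 2 places, 12 bases in all. The sixth, chrIII:7141652-7141772, was that of rank 396 and its summit lay in a coding exon of glr-2, a glutamate receptor subunit gene.

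No break in signal separated the sub-threshold regions from those that passed. The last region that passed, rank 393 at the microRNA gene mir-52, had a pooled signal of 92.12, and the first below it, rank 394 in a coding exon of ppw-2, an Argonaute gene of small RNA pathways, had 92.05. The band ended at rank 1500, in a coding exon of H32C10.1, with 67.549, and the next region, near C34D1.4, had 67.547. Signal is the authors' value and its scale is not stated; the pooled value lay near the replicate values added together (median ratio 0.995). Its median was 74.7 in the sub-threshold regions, against 109 in those that passed. The authors' −log10 q value ran from 0.686 to 1.97 in the sub-threshold regions and from 1.93 to 2.59 in those that passed. GC content within 100 bp of the summit was 44.4% ± 7.87 (SD over 1095 regions), against 45.0% ± 7.32 (SD over 393 regions) among those that passed and 40.8% ± 6.95 among those of lower rank. All 1095 sub-threshold regions were 390 bp wide, 12 of them overlapped another, and 50 (4.57%) lay within 2000 bp of a region that passed, beside 2.26% of those of lower rank.

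None of the 5 regions just above the threshold was at a promoter, though promoters held 41.1% of summits at ranks 197 to 393 and 38.7% at ranks 394 to 500. The 5 regions lay at a pair of cysteine tRNA genes near stg-2 (rank 389), at the snoRNA gene Y39G10AR.24 (390), between genes near C26C6.9 (391) and rme-2 (392), and at mir-52. The 15 regions just below it comprised 5 in coding exons, 4 in introns, 4 at promoters, 1 in a 3′ untranslated region and 1 between genes. Besides acr-18, col-99 and mix-1, the intronic one was in epg-9, an autophagy gene. Those at promoters were of miz-1, of xrn-2, a 5′ to 3′ exoribonuclease, of dhhc-4, and of nstp-10 together with ehbp-1. The region between genes, rank 406, lay 24 bp from the nearer of the lysine and threonine tRNA genes W10G11.t1 and W10G11.t2. The last 5 of the band were in introns of appg-1 and twk-22, a potassium channel gene, at promoters of F45F2.10 and Y50D4C.5, and in the coding exon of H32C10.1.

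**Figure D1:**
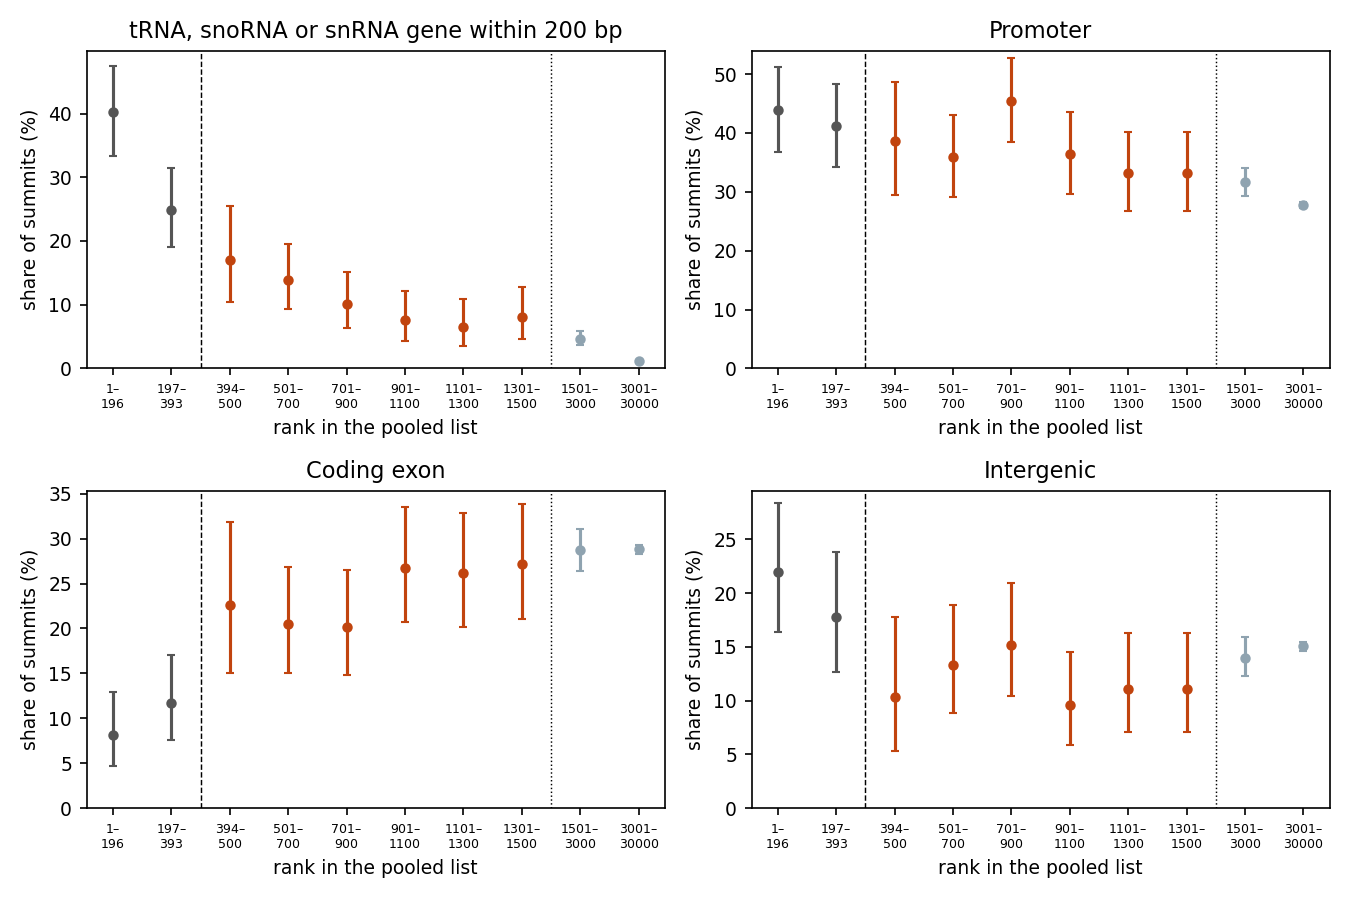
Share of region summits (percent, y axis) within 200 bp of a tRNA, snoRNA or snRNA gene, in promoters, in coding exons and in intergenic sequence, by rank in the pooled list (x axis). Points are shares and bars exact 95% intervals over regions, with regions that passed left of the dashed line, sub-threshold regions between the lines and lower ranks right of the dotted line. The small RNA share is 40.3% at ranks 1 to 196, 17.0% at ranks 394 to 500 and 1.2% beyond rank 3000.

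The small RNA difference was larger than counting error over regions in both directions. The odds ratio of sub-threshold to passed regions was 0.229 (0.171 to 0.306 at 95%; two-sided Fisher's exact test, Benjamini-Hochberg adjusted p = 2.3e-22 over 16 comparisons), and that of sub-threshold to lower-ranked regions was 7.90 (6.33 to 9.86; adjusted p = 6.15e-51). The share was graded by rank. It was 40.3% at ranks 1 to 196, 24.9% at ranks 197 to 393, 17.0% at ranks 394 to 500, 13.8% at ranks 501 to 700 and 10.1% at ranks 701 to 900. From rank 901 on it was 7.58%, 6.53% and 8.04% in the 3 remaining bands of the sub-threshold regions, 4.65% at ranks 1501 to 3000 and 1.2% beyond. Neighbouring bands inside the sub-threshold range had overlapping intervals, as the plot of shares by rank shows. The 109 regions had a median pooled signal of 78.1, against 74.4 in the other sub-threshold regions.

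tRNA genes made up most of this group. A tRNA gene lay within 200 bp of 80 sub-threshold summits (7.31%), against 74 of those that passed (18.8%; Fisher's exact test over 8 comparisons, adjusted p = 2.1e-09) and 0.905% of lower-ranked summits (adjusted p = 1.89e-40). By number of genes the bands were alike: 87 tRNA genes had a sub-threshold summit and 84 had one that passed, of 427 with any pooled summit that near. Together they came to 171 genes, or 40.0% of the 427. Both were found for 0 tRNA genes, but regions that overlapped a kept one were left out, which by itself makes such genes rare. For comparison, 309 of the 4256 genes of every class other than protein-coding with any pooled summit within 200 bp had a sub-threshold one (7.26%), and 3 had both. The summits sat on the tRNA genes closely: 37 of 80 were inside one, and 66 of 80 within 50 bp (82.5%), against 36 and 69 of 74 among the passed regions. On chromosome X, which carries many of the worm's tRNA genes, there were 38 of the 80 (47.5%), against 41 of 74 (55.4%).

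The tRNA genes of the sub-threshold regions served 21 amino acids. Lysine had 9 genes, and glycine, leucine and valine had 8 each, against 8, 8, 6 and 2 among passed regions for lysine, glycine, leucine and valine. Annotated genes for these numbered 46, 55, 39 and 31 in that order. Over all 612 annotated tRNA genes the counts were 87 sub-threshold and 84 passed. Alanine stood at 3 genes against 12 in the passed regions, of 34 annotated, and isoleucine at 2 against 7, of 29. These counts are small and were not tested. K11H12.t1, the 1 annotated selenocysteine tRNA gene, which decodes UGA in the worm's selenoprotein mRNA, had a sub-threshold summit 20 bp away at rank 655. Its region had a signal of 32.2 in replicate 1 and 46.3 in replicate 2. CGAACC, the reverse complement of the core of box B, lay within 100 bp of 51 of the 80 summits (63.8%), against 44 of 74 (59.5%) in the passed regions, as a description of sequence and not of binding.

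snoRNA and snRNA genes were also less frequent below the threshold. A snoRNA gene was near 25 sub-threshold summits (2.28%), against 43 of those that passed (10.9%; Fisher's exact test, adjusted p = 1.83e-10) and 0.331% of those of lower rank (adjusted p = 6.31e-12). By genes, 24 of the 157 snoRNA genes with any pooled summit nearby had a sub-threshold one, against 44 with one that passed. The highest were M106.6, in mix-1, and F11A10.9, in an intron of rbm-34 at rank 409, with signals of 42.2 in replicate 1 and 46.9 in replicate 2. C08D8.3, in an intron of C08D8.1 at rank 431, had 40.8 in replicate 1 and 62.3 in replicate 2. Only 4 sub-threshold summits were near an snRNA gene (0.365%), against 11 of those that passed (2.80%; Fisher's exact test, adjusted p = 0.000292), a call lost in the list of replicate 2 alone (0.734% against 1.78%, adjusted p = 0.111). Against the 0.148% of lower-ranked regions this missed the threshold (Fisher's exact test, adjusted p = 0.103), but it passed in the list of replicate 2 alone (0.734% against 0.162%, adjusted p = 0.00125). The 4 included sls-2.14 and sls-2.18, which encode spliced-leader RNAs that are joined to the 5′ ends of messenger RNAs, and the sls-2.18 summit was in glr-2. MicroRNA genes were near 5 sub-threshold summits, let-7, a timer of larval development, at rank 1044 among them, and near 4 that passed, a difference that did not pass (Fisher's exact test, adjusted p = 0.255).

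Promoters held the largest share of the sub-threshold summits. A promoter was taken as the stretch between 1000 bp before and 200 bp after the 5′ end of any protein-coding transcript, and 405 of 1095 summits lay in one (37.0%, exact 95% interval 34.1% to 39.9%). Among those that passed it was 167 of 393 (42.5%, 37.6% to 47.5%), and among those of lower rank 27.9%. The odds ratio to lower-ranked regions was 1.51 (1.33 to 1.71; Fisher's exact test, adjusted p = 1.18e-09). The odds ratio to passed regions was 0.794 (0.628 to 1.00; exact test, adjusted p = 0.0812), which missed the threshold. That comparison rested on the choices made: it passed with a promoter of 500 bp before and 100 bp after the 5′ end (22.4% against 31.8%, exact test, adjusted p = 0.000803), with regions near small RNA genes left out (38.0% against 48.3%, adjusted p = 0.0084), and in the ranked list of replicate 1 (adjusted p = 0.0472) and of replicate 2 (adjusted p = 0.0146) taken alone. The difference missed the threshold in the other settings tried (exact tests, adjusted p = 0.0532 to 0.505). Among them was a promoter of 2000 bp before and 200 bp after the 5′ end (exact test, adjusted p = 0.141). Within the band the promoter share had no steady course, with 38.7% at ranks 394 to 500, 45.5% at ranks 701 to 900 and 33.2% at ranks 1301 to 1500.

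The other classes of position differed between the bands as well. Coding exons held 263 sub-threshold summits, 24.0% against 9.92% of those that passed (odds ratio 2.87 with a 95% interval of 2.01 to 4.11; Fisher's exact test, adjusted p = 1.5e-09). The share was 11.7% at ranks 197 to 393, 22.6% at ranks 394 to 500 and 27.1% at ranks 1301 to 1500. The intervals of the first pair, 7.55% to 17.0% and 15.1% to 31.8%, overlapped. Coding exons remained more frequent in the sub-threshold regions with regions near small RNA genes left out (26.1% against 13.6%, exact test, adjusted p = 9.22e-05). Intergenic summits were fewer, 11.9% against 19.8% of those that passed (exact test, adjusted p = 0.000561), a difference that missed the threshold in the list of replicate 2 alone (15.05% against 18.3%, adjusted p = 0.236). Noncoding genes held 4.20% against 7.12% (exact test, adjusted p = 0.0474), a call that was lost in 6 settings, among them the list of replicate 1 alone (adjusted p = 0.151) and regions near small RNA genes left out (2.43% against 2.26%, adjusted p = 1). Introns held 18.7% against 18.3% (odds ratio 1.03, 0.763 to 1.38; exact test, adjusted p = 1), and 40 of the 205 intronic summits were near a small RNA gene. With regions near small RNA genes left out, introns were more frequent in the sub-threshold regions (16.7% against 10.9%, odds ratio 1.64, exact test, adjusted p = 0.0378). Against lower-ranked regions coding exons were fewer (24.0% against 28.8%, exact test, adjusted p = 0.00153), but this was lost in the list of replicate 2 alone (adjusted p = 0.0575) and turned in the list of replicate 1 alone (28.9% against 28.1%, adjusted p = 0.631). The call was lost as well for ranks after 786 (25.8% against 28.8%, exact test, adjusted p = 0.124). With regions near small RNA genes left out it was also lost (26.1% against 29.1%, exact test, adjusted p = 0.065). Also fewer than in lower-ranked regions were intergenic summits (11.9% against 14.995%, exact test, adjusted p = 0.00853), but not past the threshold in the list of replicate 2 alone (15.05% against 15.4%, adjusted p = 0.897) or for the first ranks of the band, 394 to 786 (adjusted p = 0.251). Introns were fewer as well (18.7% against 22.0%, exact test, adjusted p = 0.0183), a call lost for those first ranks (adjusted p = 0.189) and for the later ones (adjusted p = 0.0964). Summits in 3′ untranslated parts stood at 3.74% against 2.60% (exact test, adjusted p = 0.0472), a call lost in 4 settings (adjusted p = 0.0703 to 0.231), among them that with only the highest of overlapping regions kept (adjusted p = 0.0775). No chromosome's share passed in either comparison over 12 exact tests; 1 had an unadjusted p below 0.05 against the passed regions, X with 16.4% against 22.1% (adjusted p = 0.169), and 1 against lower ranks, III with 17.4% against 15.1% (adjusted p = 0.211).

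The 405 promoter summits gave 438 protein-coding genes, against 201 genes for the passed regions. These were 6.03% and 2.77% of the 7266 genes with any pooled summit in the promoter window. Both kinds of summit were found for 6 genes, but leaving out regions that overlapped a kept one by itself makes such genes rarer. Lower-ranked promoter summits gave 6897 genes, of which 213 also had a sub-threshold one. The median position was 185 bp upstream of the 5′ end, against 242 bp upstream in the passed regions, counted as -185 and -242. A summit in promoters of genes on both strands, as between divergent genes, was found for 39 of 405 (9.63%, exact 95% interval 6.94% to 12.9%), against 31 of 167 (18.6%, 13.0% to 25.3%) and 8.72% of lower-ranked promoter summits; these were not tested.

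**Figure D2:**
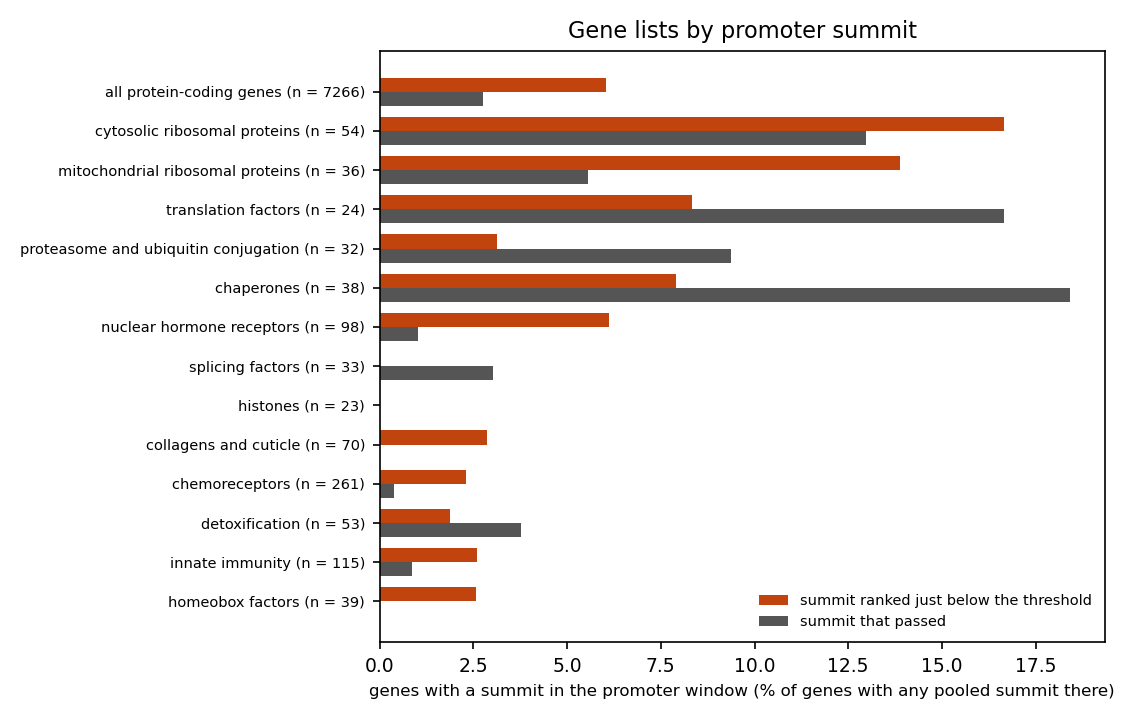
Share of the genes on each list that had a sub-threshold summit (orange) or a summit that passed (grey) in the promoter window, as a percentage of the list's genes with any pooled summit there (n, beside each name). Cytosolic ribosomal protein genes stand at 16.7% and 13.0%, chaperone genes at 7.89% and 18.4%, and all protein-coding genes at 6.03% and 2.77%.

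Ribosomal protein genes were the list with the highest share of sub-threshold promoters. Of 54 cytosolic ribosomal protein genes with any pooled summit in the window, 9 had a sub-threshold one (16.7%, beside 6.03% of all genes), and 7 others had one that passed (13.0%, beside 2.77%). The 9 were rla-1, rps-12, rps-16, rpl-43, rpl-24.1, rps-10, rps-19, rpl-16 and rps-11, and rpl-24.1 and rps-10 shared 1 summit. The rps-12 summit lay at -180 from its 5′ end but at -113 from that of another gene. That of rpl-43 lay at -732, but at -189 from another gene. The summit shared by rpl-24.1 and rps-10 lay at -217 from the first and -393 from the second. That of rps-19 lay at -263, in a region named for another gene. rla-1, which encodes an acidic protein of the large subunit's stalk, ranked 483 with a summit 116 bp downstream of its 5′ end and signals of 46.2 in replicate 1 and 38.0 in replicate 2. rps-12 ranked 499 with 39.4 in replicate 1 and 48.1 in replicate 2. rps-16 ranked 627, with 58.8 in replicate 1 and 28.8 in replicate 2. Of these 8 regions, 1 was among the 1500 highest of both replicates, 6 of 1 replicate and 1 of neither. Of all sub-threshold regions, 13.7% were so in both replicates and 17.8% in neither. Mitochondrial ribosomal protein genes had 5 of 36 (13.9%), mrpl-28, mrps-18.C, mrpl-50, mrpl-41 and mrps-14, against 2 with a passed summit.

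Chaperone, translation factor and proteasome genes had more passed than sub-threshold promoters. Chaperone genes had 3 of 38 (7.89%, beside 6.03% of all genes), against 7 passed (18.4%, beside 2.77%). They were dnj-20 (rank 420) and dnj-14 (970), which encode J-domain co-chaperones, and hsp-3 (1019), an Hsp70 of the endoplasmic reticulum. dnj-20 had signals of 55.1 in replicate 1 and 39.9 in replicate 2, whereas hsp-3 had 25.4 in replicate 1 and 47.5 in replicate 2. Translation factors had 2 of 24 (8.33%), eef-1G and the cap-binding protein gene ife-1, against 4 passed (16.7%). Proteasome and ubiquitin genes had 1 of 32 (3.12%), the conjugating enzyme gene ubc-3, against 3 passed (9.38%). Splicing factors had 0 of 33 against 1, and histones had 0 of 23 against 0. These counts are small and describe the lists only.

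Nuclear hormone receptor genes, the family of the tagged protein, had 6 sub-threshold promoters of 98 (6.12%), close to the 6.03% of all genes, against 1 that passed. They were nhr-41, nhr-88, nhr-25, nhr-48, nhr-255 and nhr-1. nhr-25, which acts in epidermal development and molting, ranked 820 with signals of 44.6 in replicate 1 and 32.3 in replicate 2. nhr-41 ranked 673 with 39.7 in replicate 1 and 35.7 in replicate 2, and its summit lay 54 bp from a tRNA gene. nhr-1 ranked 1166 with 54.3 in replicate 2 and no region in the replicate 1 list. None of the 6 was among the 1500 highest of both replicates, beside 13.7% of all sub-threshold regions, so the count is too small to set them apart. Chemoreceptor, immunity, cuticle, homeobox and detoxification genes had shares below that of all genes. Chemoreceptors had 6 of 261, innate immunity genes 3 of 115 (nlp-26, spp-13 and clec-126), collagen and cuticle genes 2 of 70 (dpy-11 and col-185), homeobox genes 1 of 39 (ceh-18) and detoxification genes 1 of 53 (gst-38). The summits of spp-13, clec-126 and the chemoreceptor genes srd-44 and srh-269 lay inside tRNA genes, and that of col-185 lay 59 bp from a tRNA gene. GATA factors (5 genes), major sperm proteins (6) and vitellogenins (2) had 0. Of the tissue marker lists for intestine, hypodermis, muscle, neuron and germline, nhr-25, 1 of the 3 genes of the hypodermis list with any pooled summit in the window, alone had a sub-threshold promoter. No sub-threshold region lay within 25000 bp of nhr-27, nhr-270 or unc-119. The same held for the regions that passed, and lower-ranked regions there numbered 43, 1 and 14 in that order.

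Short words near the summits were intermediate between the bands or close to the lower ranks. GAGAGA, a simple repeat, lay within 100 bp on either strand of 22.2% of sub-threshold summits, against 27.5% of those that passed (Fisher's exact test over 12 comparisons, adjusted p = 0.0566) and 14.7% of those of lower rank (adjusted p = 4.38e-10). CACGCG lay near 7.03%, against 12.7% (exact test, adjusted p = 0.00202) and 3.44% (adjusted p = 7.08e-08). TTTCAG, the usual end of worm introns, lay near 26.5%, against 16.3% (exact test, adjusted p = 9.89e-05) and 30.5% (adjusted p = 0.00682; 0.108 within 50 bp of the summit). With regions near small RNA genes left out, TTTCAG missed the threshold against passed regions (26.98% against 20.4%, exact test, adjusted p = 0.0642). CGAACC lay near 10.05%, against 16.8% (exact test, adjusted p = 0.00169) and 4.82% (adjusted p = 4.28e-11). The first call was lost within 50 bp of the summit (exact test, adjusted p = 0.107), and both with regions near small RNA genes left out (5.48% against 4.53%, exact test, adjusted p = 0.732, and against 4.42% of lower ranks, adjusted p = 0.178). AGGTCA, the half-site that many nuclear receptors bind, lay near 5.57%, against 6.87% (odds ratio 0.800, 0.501 to 1.28; exact test, adjusted p = 0.417) and 5.56% (odds ratio 1.00, 0.77 to 1.30; adjusted p = 1). TGATAA, which factors of the GATA family bind, passed in neither comparison (12.5% against 9.67% and 14.4%; exact test, adjusted p = 0.173 and 0.105), but passed against lower ranks in the list of replicate 2 alone (12.3% against 15.2%, adjusted p = 0.0163) and with regions near small RNA genes left out (11.8% against 14.4%, adjusted p = 0.0494). At promoter summits alone, GAGAGA lay near 25.4% of the sub-threshold ones, against 29.3% of those that passed and 17.1% of those of lower rank, and CACGCG near 10.4%, against 16.2% and 4.18%. Each word was counted by itself, matches of different words may share bases, and a match is a description of sequence and not of a factor. The words were taken from earlier results of these data, so these tests are not independent of that choice. They describe the lists only.

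Recovery in the replicates was lower than among the regions that passed and became rarer along the band. A region counted as recovered when a region among the 1500 highest of a replicate's own list overlapped it by at least 1 bp. In replicate 1 this held for 506 of 1095 sub-threshold regions (46.2%, exact 95% interval 43.2% to 49.2%), against 90.8% of those that passed. In replicate 2 it held for 544 (49.7%, 46.7% to 52.7%), against 94.7%. Both replicates recovered 150 (13.7%, 11.7% to 15.9%), against 85.5%, and neither recovered 195 (17.8%), against 0. The remaining 750 were recovered in a single replicate, 356 in replicate 1 and 394 in replicate 2. Of the lower-ranked regions, 51 were recovered in both (0.18%). Because the pooled signal that ranked the regions lies near the replicate values added together, these shares describe the list and are not independent of the choice of regions.

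**Figure D3:**
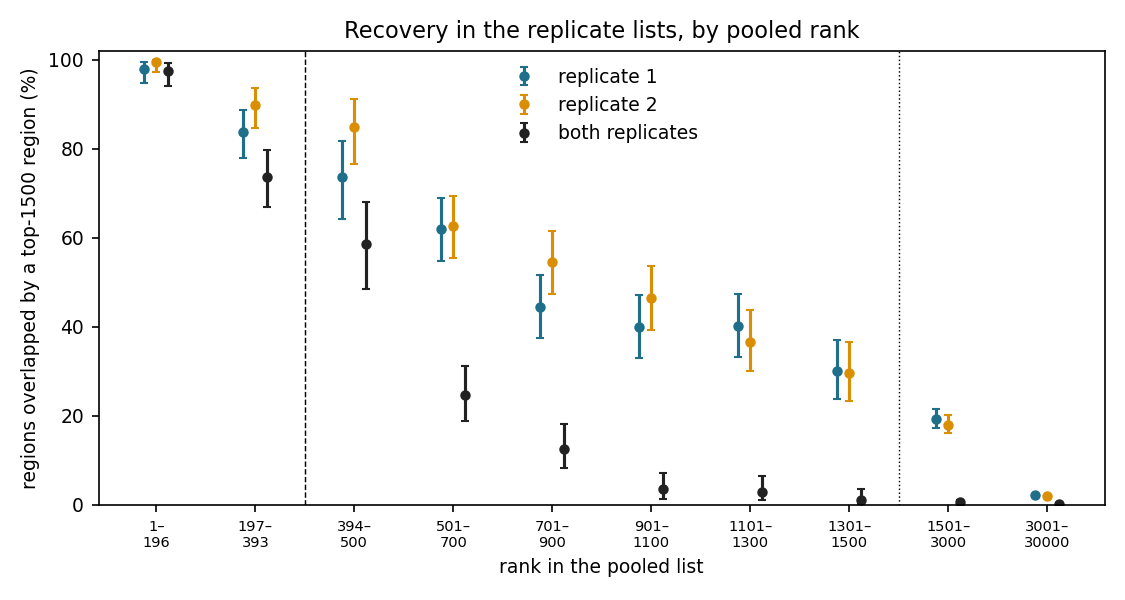
Share of regions (percent, y axis) overlapped by one of the 1500 highest regions of replicate 1, of replicate 2 or of both, by rank in the pooled list (x axis), with exact 95% intervals over regions. Regions that passed are left of the dashed line and lower ranks right of the dotted line; recovery in both is 73.6% at ranks 197 to 393, 58.5% at ranks 394 to 500 and 1.01% at ranks 1301 to 1500.

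Recovery in both replicates was 97.4% at ranks 1 to 196, 73.6% at ranks 197 to 393 and 58.5% at ranks 394 to 500, and then 24.6%, 12.6%, 3.54%, 3.02% and 1.01% over the 5 later bands to rank 1500. The last regions of the replicates' 1500 highest had signals of 39.5 in replicate 1 and 38.0 in replicate 2, which add up to 77.5, and the pooled signal crossed that sum at rank 804. Of the 403 sub-threshold regions above it, 129 were recovered in both (32.0%), against 21 of the 692 below it (3.03%). Nearly every region was overlapped by some region of the full lists: 1083 by one of replicate 1, 1092 by one of replicate 2 and 1080 by both. These counterparts' median rank was 1647 in replicate 1 and 1506 in replicate 2. Signals of the 2 counterparts were within 1.5-fold of each other for 62.2% of those found in both, against 73.0% among passed regions.

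**Figure D4:**
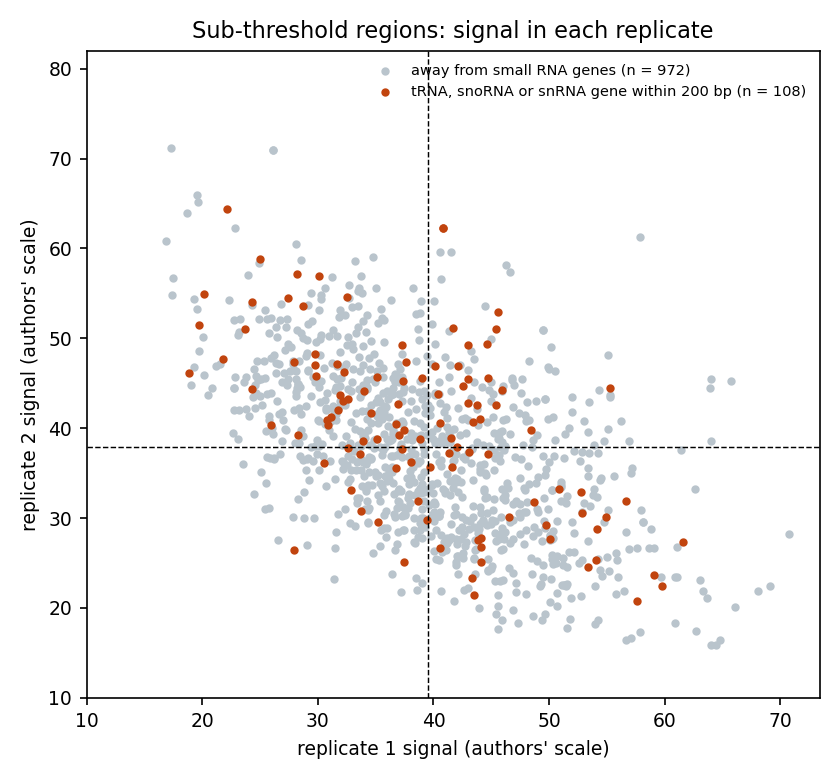
Signal of the counterpart of each sub-threshold region in replicate 1 (x axis) and replicate 2 (y axis), on the authors' unstated scale, for the 1080 regions found in both lists. Orange points are the 108 regions within 200 bp of a tRNA, snoRNA or snRNA gene, grey points are the other 972, and dashed lines mark the signal at rank 1500 of each list, 39.5 and 38.0; points lie along a falling band since about their sum set the pooled rank.

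By the signal of the weaker counterpart, the sub-threshold regions that both replicates recovered were led by atg-7, whose product activates ubiquitin-like proteins in autophagy. Its promoter region, rank 485, had 57.8 in replicate 1 and 61.3 in replicate 2, and it was the 1 sub-threshold region whose counterparts were among the 393 highest of each replicate. Its pooled signal of 87.1 was well below the sum of its counterparts' signals. Whether those counterparts share its summit was not tested. best-18, a bestrophin gene, with its summit in a coding exon at rank 419, had 50.2 in replicate 1 and 49.1 in replicate 2. eri-1, an exonuclease gene that limits RNA interference, held overlapping regions at ranks 451 and 615 that shared their counterparts, with 49.4 in replicate 1 and 51.0 in replicate 2. For best-18 and both eri-1 regions the pooled signal, 90.6, 88.7 and 82.5, was also below the sum of the counterparts' signals. W06H8.6 had a region in its 3′ untranslated part at rank 1477 whose counterparts had 55.1 in replicate 1 and 48.2 in replicate 2; its pooled signal of 67.8 was well below their sum, and W06H8.6 also held rank 395. Counterparts were found by overlap, so 12 sub-threshold regions shared both counterparts with another. Among the 150 recovered in both, 15.3% were near a small RNA gene (exact 95% interval 9.98% to 22.1%), beside 9.73% of the 750 recovered in 1 and 6.67% of the 195 in neither (3.60% to 11.1%). Rank was not held fixed in this comparison. At ranks 394 to 500, 58.5% were recovered in both and 17.0% were near a small RNA gene. At ranks 1301 to 1500 these were 1.01% and 8.04%, so recovery and rank cannot be told apart here.

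At the other end were regions much higher in 1 replicate than in the other. daf-16, the FOXO transcription factor gene of insulin signaling, had a promoter region at rank 647 with 16.8 in replicate 1 (rank 29844 there) and 60.8 in replicate 2 (rank 182). pinn-1, a prolyl isomerase gene, had one at rank 437 with 17.3 in replicate 1 and 71.2 in replicate 2. mboa-2, at rank 854, had 17.3 in replicate 1 and 54.9 in replicate 2. The reverse held for vit-6, a yolk protein gene, with a coding exon region at rank 1048 that had 64.4 in replicate 1 (rank 146) and 15.9 in replicate 2 (rank 29331). Y54G2A.77, in an intron at rank 725, likewise had 64.0 in replicate 1 and 15.9 in replicate 2. Such a region entered the band through 1 library, and a further 15 regions had no counterpart in 1 of the lists, among them dpy-11, a thioredoxin-like cuticle gene, with 60.3 in replicate 1 alone. Regions recovered in replicate 1 alone lay in coding exons in 27.8% of cases (exact 95% interval 23.2% to 32.8%), beside 19.04% (15.3% to 23.3%) of those recovered in replicate 2 alone. GAGAGA lay near 19.7% (15.7% to 24.2%) of the first and 27.2% (22.8% to 31.8%) of the second, and CGAACC near 6.46% (4.14% to 9.54%) and 11.7% (8.68% to 15.3%). These differences between the replicates' own regions are descriptions and were not tested.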

How the data were processed

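ChIP-seq regions of 2 biological replicates, the pooled reads and the IDR-thresholded set were used as the authors deposited them. The deposited signal value (unstated scale) ranked regions, and the deposited −log10 q value only described them. Regions are on ce11 per the labels, called from immunoprecipitated and control alignments per the deposited text notes. Which aligner, caller and IDR threshold served is not given in the sources used here, and the control was not analysed here. Read depth is unknown, so intervals cover counting error over regions only. The labels number the replicates as biological, and no test used them as n.

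Genes came from Ensembl release 115, and tRNA products and sequence from RefSeq. A summit took the first class that fitted of promoter, untranslated 5′ part, coding exon, untranslated 3′ part, intron, noncoding gene and intergenic sequence. Two-sided Fisher's exact tests compared shares in SciPy 1.17.1 (Python 3.11.15), with Benjamini-Hochberg adjustment within each family at 0.05. Regions are not replicates of a condition, so p-values describe these lists. Intervals of odds ratios use a normal approximation of their logarithm; the others are exact (Clopper-Pearson). Scripts were tested on simulated data. The regions, lists, words and tests were chosen with earlier results of these data known. Named genes are the 15 highest and 5 last sub-threshold regions, the 5 last that passed, up to 4 per gene list and RNA class, the 5 of most different replicate ranks, the 5 highest in their lower replicate, and nhr-27, nhr-270 and unc-119. Further ribosomal and receptor genes, K11H12.t1, C01B10.9 and C34D1.4 were named after their values were seen. Leaving out a replicate meant taking the same ranks from the other replicate's own list.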

Additional observations from a re-analysis of the deposited data

How the results depend on the processing

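The small RNA shares kept their direction and their side of the threshold in both comparisons under every setting tried: single-replicate lists, narrower bands, members near passed regions or overlapping one another left out, the upper passed regions alone, the whole region in place of its summit, and distances of 100 and 500 bp. The promoter share of sub-threshold minus passed regions, -5.51 percentage points and short of the threshold, passed at -6.55 and -7.79 points when replicate 2 or replicate 1 was left out, at -9.43 points with the shorter promoter and at -10.3 points with regions near small RNA genes left out. In the other settings that promoter difference stayed short of the threshold. The number of other position classes that passed against lower ranks, 4, was 2 to 3 with a replicate left out, and 1 for the ranks down to 786 or for those after it alone. Words that passed against the passed regions, 3, came to 1 with regions near small RNA genes left out, where CGAACC turned to 0.948 points. Coding exons against lower ranks were at -2.95 points without replicate 1 and turned to 0.774 points without replicate 2, and noncoding genes against passed regions to 0.17 points with regions near small RNA genes left out; that setting for position classes and chromosomes was chosen after seeing the data. There X against lower ranks was the 1 chromosome that passed, against 0 otherwise. Of the single classes, RNA types, words and chromosomes, 166 values stayed on their side of the threshold, 22 lost a call, 5 gained one and 3 called ones turned; 15 of the 166 changed sign without a call in either setting. The cause was not tested. Recovery in replicate 1, replicate 2, both and neither was 42.1%, 45.5%, 9.41% and 21.8% with summits within 100 bp, 67.8%, 69.5%, 39.5% and 2.28% in the top 3000, and 63.0%, 67.9%, 32.9% and 2.07% for the first ranks alone. No paired analysis was possible because the 2 samples form 1 group. The lists hold no read counts, so the depth behind a region cannot be given.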
